A study of Mus musculus with 12 samples.

Results

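T cell receptor alpha chain use was described from the Trav genes, the variable (V) segments of the alpha locus, in PD-1+CD44+CD8+ T cells sorted from female NZB/W F1 mice. These F1 hybrids of the NZB and NZW strains acquire autoimmune kidney disease as they grow older. The members were all listed genes whose symbol starts with Trav and a digit, which gave 96 segments of 18992 listed genes over the 3 libraries. Of these, 81 were listed in all 3. The 12W spleen table listed 88, that of 28W spleen 92 and that of 28W kidney 86. The groups were spleen of pre-disease mice of 12 weeks (12W spleen), spleen of mice with advanced disease of 28 weeks (28W spleen) and kidney of mice of 28 weeks (28W kidney), all without treatment stated. The labels give 4 samples to each group, their titles differ by a suffix of the form used for sequencing lanes, the deposited tables pool them with no map from cells to samples, and the number of mice is not stated, so each group is 1 library without a replicate and no difference below was tested. For 28W spleen the title and a second label disagree on age (the latter gives 12 weeks), and grouping followed the title.

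Each alpha chain is made by joining a V segment to a joining segment ahead of the constant gene *Trac*, so the Trav transcript of a T cell reports which segment that cell rearranged. In thymocytes the V segments nearest the joining segments are used first, and later rounds of joining on the same chromosome reach V segments farther away. The delta chain genes lie inside the alpha locus, and V segments whose name carries dv can be joined into either an alpha or a delta chain. Blocks of the mouse locus were duplicated, and the copies carry d or n in their names. Invariant T cells use fixed alpha chains, with *Trav11* in invariant natural killer T cells and *Trav1* in mucosal-associated invariant T cells.

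The 3 libraries held 6894, 6481 and 7135 cells in 10, 11 and 12 clusters, which the authors made within each library, so that cluster numbers are not matched between libraries and T cell receptor genes may have taken part in the clustering. Depth was 34742303, 32023473 and 29937384 unique molecular identifiers (UMIs, which count captured transcript molecules), in the order 12W spleen, 28W spleen and 28W kidney. *Trac* was present at 275, 224 and 282 counts per 1000000 UMIs (CPM) and *Cd8a*, the CD8 alpha chain, at 591, 488 and 738 CPM in that order. Between 52 and 66 cell barcodes were shared by any 2 libraries, 0.754% to 1.02% of the cells of a library. Intervals in parentheses are 95% intervals for counting error only. UMIs of the same cell or clone are not independent, so the true uncertainty is wider.

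Trav reads are assigned over whole transcripts, and copies that differ little there can exchange reads. The germline V exons below are shown as a part of those transcripts. They are the coding part of the second exon on the plus strand of mouse chromosome 14 (GRCm38, GENCODE M21, the C57BL/6J reference). The alleles of NZB and NZW mice were not examined. The 3 members of the Trav10 family carry the largest kidney share gained by any family, and capitals mark the bases that differ from *Trav10d* (chr14:52811206-52811496), at 2 bases in *Trav10* (chr14:53505996-53506286) and 3 in *Trav10n* (chr14:53122320-53122610). The annotated transcripts of *Trav10n* and *Trav10d*, of 343 and 406 bases, differ by 66 edits.
Trav10d: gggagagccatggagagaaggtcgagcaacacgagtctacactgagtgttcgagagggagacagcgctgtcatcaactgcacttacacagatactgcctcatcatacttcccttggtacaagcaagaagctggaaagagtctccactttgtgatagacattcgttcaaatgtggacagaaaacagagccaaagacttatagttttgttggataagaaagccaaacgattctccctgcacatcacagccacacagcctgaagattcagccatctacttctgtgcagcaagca
Trav10: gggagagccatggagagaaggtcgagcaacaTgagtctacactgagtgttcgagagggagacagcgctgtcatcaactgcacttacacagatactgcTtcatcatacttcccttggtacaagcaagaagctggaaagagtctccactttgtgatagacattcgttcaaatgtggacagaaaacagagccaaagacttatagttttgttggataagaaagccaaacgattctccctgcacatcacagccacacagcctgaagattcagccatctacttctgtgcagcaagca
Trav10n: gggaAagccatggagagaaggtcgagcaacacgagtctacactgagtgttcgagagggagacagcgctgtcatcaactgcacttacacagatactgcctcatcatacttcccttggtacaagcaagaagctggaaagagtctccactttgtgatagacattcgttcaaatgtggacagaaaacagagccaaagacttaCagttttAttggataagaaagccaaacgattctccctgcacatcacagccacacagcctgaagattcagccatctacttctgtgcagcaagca
*Trav3-3* (chr14:53666216-53666506) was the most used segment in all 3 libraries. Its copy *Trav3d-3* (chr14:52972748-52973038) was not listed in any, and neither was *Trav3n-3*, whose annotated transcript equals that of *Trav3d-3* (0 differences). Reads of these identical copies cannot be told apart, so their absence does not show that they were unused. Capitals mark the 4 bases at which *Trav3-3* and *Trav3d-3* differ.
Trav3-3: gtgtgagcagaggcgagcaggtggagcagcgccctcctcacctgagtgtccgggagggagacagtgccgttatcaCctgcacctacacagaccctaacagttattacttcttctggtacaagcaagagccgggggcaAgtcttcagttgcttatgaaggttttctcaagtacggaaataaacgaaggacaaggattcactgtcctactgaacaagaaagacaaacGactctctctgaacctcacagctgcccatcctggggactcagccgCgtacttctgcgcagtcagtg
Trav3d-3: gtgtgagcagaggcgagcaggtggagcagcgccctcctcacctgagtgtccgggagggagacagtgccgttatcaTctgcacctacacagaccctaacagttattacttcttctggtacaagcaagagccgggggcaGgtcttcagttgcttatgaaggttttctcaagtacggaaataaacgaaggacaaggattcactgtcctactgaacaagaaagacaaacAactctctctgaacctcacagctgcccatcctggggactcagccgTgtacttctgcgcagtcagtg
*Trav15-2-dv6-2* (chr14:53649845-53649994) and *Trav15d-1-dv6d-1* (chr14:52863787-52863936) were the most used members of the Trav15 family, which is shared with the delta chain. Their whole V exons differ by 57 edits. The last 150 bases of each are shown, and capitals start at the last in-frame cysteine codon, where the junction begins.
Trav15-2-dv6-2: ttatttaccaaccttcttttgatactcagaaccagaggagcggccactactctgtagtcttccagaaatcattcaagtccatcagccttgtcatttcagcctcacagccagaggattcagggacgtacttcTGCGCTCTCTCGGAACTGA
Trav15d-1-dv6d-1: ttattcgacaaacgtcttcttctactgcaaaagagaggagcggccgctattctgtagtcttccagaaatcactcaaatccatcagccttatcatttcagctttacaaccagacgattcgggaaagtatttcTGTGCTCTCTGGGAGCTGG

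Trav transcripts were most abundant in 12W spleen. Their summed level was 1031 CPM (1021 to 1042) there, against 778 (769 to 788) in the older spleen and 851 (841 to 862) in kidney, from 35834, 24922 and 25483 Trav UMIs. Per cell this was 5.20, 3.85 and 3.57 Trav UMIs. The order of the 2 groups of 28 weeks is not firm, since weighting the deposited cluster means by cells gave 783 CPM in 28W spleen and 769 in 28W kidney. Per UMI of *Trac* there were 3.75, 3.47 and 3.02 Trav UMIs. The 9 genes of the T cell receptor complex list (*Trac*, *Trbc1*, *Trbc2*, the CD3 chains and the CD8 chains) did not pass 2-fold in either comparison, with a median log2 ratio of -0.18 for 28W spleen over 12W spleen and 0.24 for 28W kidney over 28W spleen. In a library of many cells, fewer T cells and less Trav RNA per cell cannot be told apart from these sums.

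Use was spread over many segments in every library. The effective number of segments, the exponential of the Shannon entropy of their shares (the number of equally used segments with that entropy), was 45.9 (45.5 to 46.3) for 12W spleen, 46.8 (46.3 to 47.3) for 28W spleen and 44.4 (43.9 to 44.8) for kidney. With the inverse Simpson index, which weights frequent segments more, it was 32.8, 33.8 and 33.9, so the position of kidney against spleen depended on the index. The 20 most used segments of each library took 61.3% (60.8 to 61.8), 62.1% (61.5 to 62.7) and 67.2% (66.6 to 67.8) of Trav UMIs. The kidney library thus had more of its UMIs in its leading 20, while its 5 leading segments took 26.4%, against 26.6% and 26.1% in 12W and 28W spleen. For the beta chain, the inverse Simpson index over Trbv segments was 7.87, 7.86 and 6.67.

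The leading segments were largely shared, and kidney differed in which of them stood next to *Trav3-3*. *Trav3-3* took 10.2% (9.89 to 10.5) of Trav UMIs at 12 weeks, 9.95% (9.58 to 10.3) in spleen at 28 weeks and 7.37% (7.05 to 7.70) in kidney. *Trav13-1* was next in both spleens at 5.73% and 4.57%, and stood at 4.21% in kidney. *Trav5-4* took 3.35%, 4.27% and 5.65%, the second place in kidney. *Trav10d* took 1.93% (1.79 to 2.08), 2.94% (2.73 to 3.16) and 5.38% (5.10 to 5.66). The intervals of *Trav10d* do not overlap between any 2 libraries, and its order is 12W spleen, then 28W spleen, then kidney. *Trav2*, at 2.85% in 28W spleen and 3.82% in kidney with an interval of 2.34% to 2.67% at 12 weeks, and *Trav12-2*, at 1.88%, 2.18% and 3.23%, followed the same order. *Trav16d-dv11* stood in the opposite order, at 3.56%, 2.56% and 1.57%, as did *Trav8d-2*, at 3.75%, 3.06% and 2.74%. *Trav6n-6*, *Trav8n-2* and *Trav9-2* took similar shares in all libraries, within 3.22% to 3.47%, 2.59% to 2.74% and 2.81% to 2.99%.

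**Figure D1:**
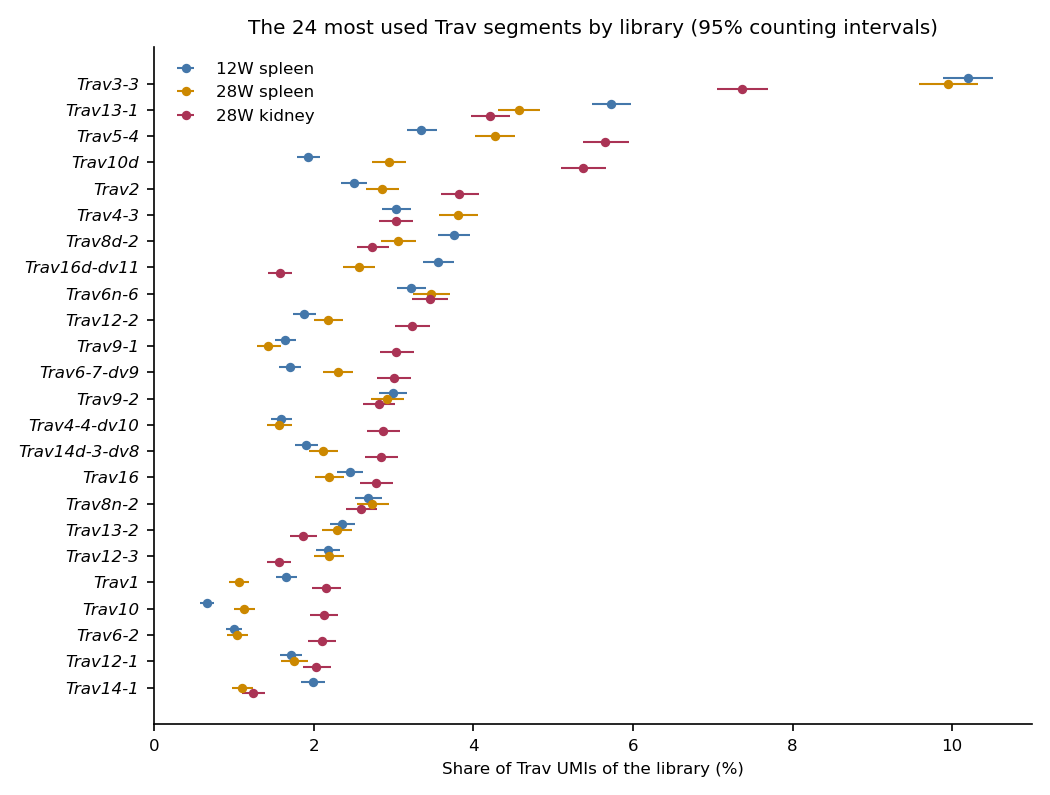
Share of each library's Trav UMIs (x axis, percent) for the 24 most used segments, with 1 point per library and bars for 95% exact binomial counting intervals. *Trav3-3* leads in all 3, and *Trav10d* runs from 1.93% in 12W spleen to 5.38% in 28W kidney.

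Across the 96 segments the shares of 12W and 28W spleen had a Pearson correlation of 0.98, those of 28W spleen and 28W kidney 0.91 and those of 12W spleen and 28W kidney 0.86. These are descriptions over segments that share a library and its depth. The share of Trav UMIs that would have to be moved to other segments to match the libraries was 8.03% for the spleens, 16.1% for 28W spleen and kidney, and 19.6% for 12W spleen and kidney. By families, Trav10 took 2.99% (2.82 to 3.17), 4.53% (4.27 to 4.79) and 8.12% (7.78 to 8.46), and Trav9 6.62%, 6.31% and 8.50%. Trav13 took 12.3%, 10.9% and 8.13%, Trav3 12.2%, 12.0% and 8.91%, and Trav15 3.30% (3.12 to 3.49), 2.46% (2.27 to 2.66) and 1.20% (1.07 to 1.34).

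With age in spleen, 59 of 72 segments had a lower CPM, beside the lower Trav total. Of 72 segments with at least 20 UMIs in either library, 0 were at least 2-fold higher in 28W spleen, where 1.93% of all genes were, and 2 were at least 2-fold lower, where 0.981% of all genes were. The median log2 ratio (CPM plus a pseudocount of 1) was -0.33 over the segments and -0.09 over all genes, with 13 segments above 0 and 59 below. The segments that passed were *Trav14-1*, at 20.5 CPM in 12W spleen and 8.62 in 28W spleen (log2 ratio -1.16, interval without pseudocount -1.46 to -1.05), and *Trav13d-1*, at 7.77 and 3.28 CPM (-1.04, -1.58 to -0.91). *Trav1* was at 17.1 and 8.24 CPM (-0.97, -1.27 to -0.84). As shares of Trav UMIs, 35 segments were above 0 and 37 below, and neither *Trav14-1* nor *Trav13d-1* passed 2-fold. By that measure, with a pseudocount of 0.05 percentage points, *Trav13-4-dv7* was the segment past 2-fold higher. *Trav6n-5*, on 51 and 9 UMIs, was the segment past 2-fold lower. Without that pseudocount *Trav20*, on 24 and 37 UMIs, was also past 2-fold higher (log2 ratio 1.15). The highest ratios among segments with at least 200 UMIs were those of *Trav10* (6.82 and 8.77 CPM, log2 ratio 0.32), *Trav10d* (19.9 and 22.9 CPM, 0.19) and *Trav17* (5.96 and 6.81 CPM, 0.17, with an interval that spans 0).

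Between kidney and spleen at 28 weeks, ratios lay on both sides of 0. Of 70 segments with at least 20 UMIs in either library, 3 were at least 2-fold higher in kidney, a share below the 9.11% of all genes, and 0 were at least 2-fold lower, where 1.28% of all genes were. The median log2 ratio was -0.09 over the segments and 0.11 over all genes, with 31 above 0 and 39 below. *Trav9-1* was at 11.1 CPM in 28W spleen and 25.8 in kidney (log2 ratio 1.14, 1.03 to 1.40). *Trav1* was at 8.24 and 18.3 CPM (1.06, 0.94 to 1.37), beside 17.1 CPM at 12 weeks. *Trav6-2* was at 8.09 and 17.9 CPM (1.05, 0.93 to 1.36). *Trav10d*, at 22.9 and 45.8 CPM (0.97, 0.87 to 1.13), *Trav10*, at 8.77 and 18.1 CPM (0.96, 0.83 to 1.26), and *Trav4-4-dv10*, at 12.2 and 24.4 CPM (0.95, 0.83 to 1.19), stood just under the threshold. Among segments with at least 200 UMIs in either library the lowest ratio was that of *Trav13n-4*, at 13.4 CPM in 28W spleen and 6.51 in kidney (-0.94, -1.29 to -0.79), followed by *Trav15-2-dv6-2* at 8.93 and 4.61 CPM (-0.82) and *Trav15d-1-dv6d-1* at 9.71 and 5.14 CPM (-0.80). With fewer UMIs, *Trav4-2* (-0.92) and *Trav6d-5* (-0.82) stood in the same range. As shares of Trav UMIs 2 segments were past 2-fold higher, *Trav9-1* and *Trav9n-1*, and 5 past 2-fold lower, *Trav13n-4*, *Trav15-2-dv6-2*, *Trav4-2*, *Trav6d-3* and *Trav6d-5*.

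The higher Trav10 share of kidney was present in most kidney clusters. *Trav10d* stood among the 3 leading segments in 9 of 12 kidney clusters and in 0 of 21 spleen clusters. The family's share ran from 0.94% to 4.20% over the 12W spleen clusters. Its range was 3.04% to 5.78% over the 28W spleen clusters and 2.13% to 10.9% over the kidney clusters. In 10 kidney clusters it was 6.61% or more, above every spleen cluster. The other two were cluster 12, at 4.44% (1.94 to 8.57) on 180 Trav UMIs, and cluster 8, at 2.13% (1.41 to 3.08) on 1268. Kidney cluster 8 carried B cell markers at 1713 CPM in sum, which were 10.9 to 165 CPM in the other kidney clusters. Among kidney clusters with at least 200 Trav UMIs, cluster 8 had the highest share of *Trav3-3* at 10.0%, and its Trav15 family share of 3.0% (2.13 to 4.09) was the highest of all 12. The part of B cells in these shares was not tested. Leaving out the 4 kidney clusters in which B cell, myeloid or tubule lists were raised gave the Trav10 family 8.45% in kidney, beside 3.03% in 12W and 4.53% in 28W spleen with their own such clusters left out, and put *Trav10d* past 2-fold (log2 ratio 1.18). The erythroid list was not part of that rule, and with it kidney cluster 11 was left out too, which gave the family 8.58% in kidney and *Trav10d* a log2 ratio of 1.21.

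**Figure D2:**
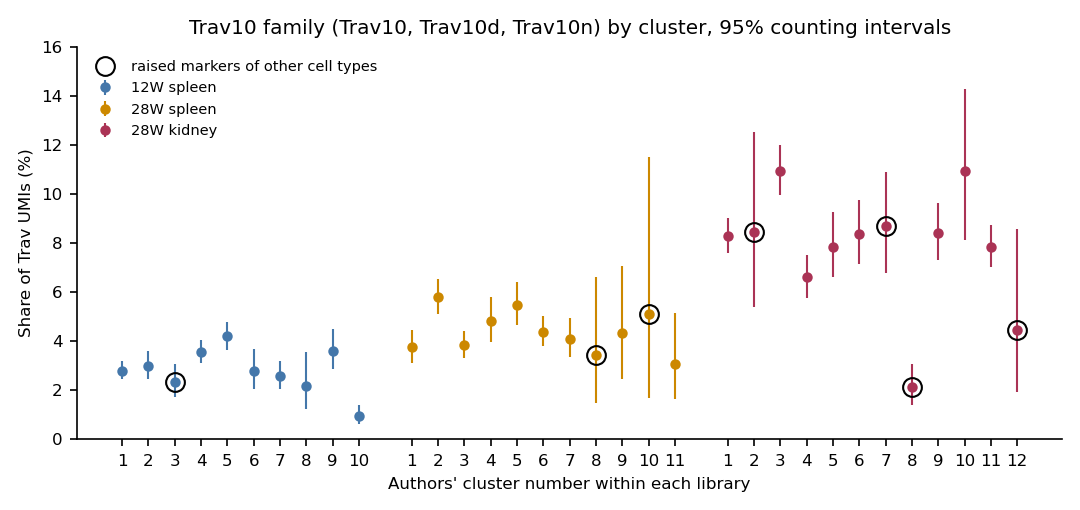
Share of the Trav10 family among the Trav UMIs of each cluster (y axis, percent), with 95% exact binomial counting intervals, by the authors' cluster number within each library (x axis). Open circles mark clusters in which a B cell, myeloid or tubule list was raised, and 10 of the 12 kidney clusters stand above every spleen cluster.

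Other segments that were higher in the kidney library differed in how far they spread over its clusters. Among clusters with at least 200 Trav UMIs (10, 10 and 11 per library), *Trav9-1* stood above every 28W spleen cluster (at most 2.37%) in 8 kidney clusters, and ran from 1.15% to 4.06% over all 11. *Trav1* did so in 5 kidney clusters, above a 28W spleen maximum of 2.58% that rested on 11 UMIs in cluster 11. It ran from 0.38% in kidney cluster 2, with 260 Trav UMIs, to 4.99% in kidney cluster 10, with 421. *Trav6-2* did so in 0 and ran from 0.71% to 3.09% in kidney clusters. Its 28W spleen maximum of 3.28%, in cluster 11, rested on 14 of 427 Trav UMIs. The median *Trav6-2* share over these clusters was 1.02% in 28W spleen and 1.54% in kidney. *Trav4-4-dv10* stood above every 28W spleen cluster in 6 kidney clusters. It was highest in kidney cluster 1, at 56.6 CPM against 17.8 in the other kidney clusters. That cluster held 39.5% of the segment's UMIs from 12.6% of the cells. As a share of Trav UMIs the segment was 2.19-fold over the other kidney clusters there. *Trav13n-4* was highest in 28W spleen cluster 6, at 3.26%, the cluster with the highest 28W spleen level of proliferation genes (2849 CPM). Its kidney shares ran from 0.38% to 1.08%.

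*Trav3-3* led 27 of the 33 clusters. In 12W spleen the exception was cluster 3, led by *Trav15-2-dv6-2* at 9.09% (7.90 to 10.4) beside 8.57% (7.41 to 9.85) of *Trav3-3*, and in 28W spleen cluster 10, led by *Trav12-2* with 16 of 98 Trav UMIs. In kidney *Trav10d* led clusters 3 (6.96%) and 10 (7.60%), *Trav5-4* led cluster 6 (6.66%), and *Trav13-1* led cluster 7 (6.61%). The intervals of the leading and the next segment overlap in both spleen exceptions and in kidney clusters 6, 7 and 10, and not in kidney cluster 3. The effective number of segments, over clusters with at least 200 Trav UMIs, ran from 39.5 to 45.4 in 12W spleen, from 31.6 (cluster 9) to 46.1 in 28W spleen and from 33.4 (cluster 2) to 45.5 in kidney. The lowest values come with few Trav UMIs, 345 in 28W spleen cluster 9 and 260 in kidney cluster 2. Kidney cluster 1, with 5856 Trav UMIs, had an effective number of 36.5 (35.6 to 37.3), and kidney cluster 11, with 4052, 37.5 (36.5 to 38.5), against 45.5 (44.2 to 46.8) in cluster 4 with 3179. Cluster 1 was high in the cytotoxic list (15307 CPM). Cluster 3 was close to it in that list (14982.5 CPM), with an effective number of 42.5. Cluster 6 was highest in the list (20001 CPM), with an effective number of 38.3. Cluster 11 had the highest proliferation list of the library (8523 CPM). Cluster 11 also held erythroid genes at 1809 CPM, against 4.08 in the median kidney cluster, and their part in its Trav values was not tested.

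A segment was called concentrated when 1 cluster was at least 4-fold over the other clusters of its library in CPM. Of segments with at least 100 UMIs, 11 of 56 (19.6%) met this in 12W spleen, 9 of 52 (17.3%) in 28W spleen and 0 of 50 in kidney, where 23.6%, 15.9% and 13.8% of all genes did. The spleen shares are near those of all genes. In 12W spleen 9 of the 11 were highest in cluster 8 on 4 to 34 UMIs, and in 28W spleen 8 of the 9 in cluster 11 on 5 to 26 UMIs. Both clusters also had the highest summed Trav level of their library and few UMIs per cell, 928 and 1288. Measured instead as shares of each cluster's Trav UMIs, 3, 4 and 7 segments passed 4-fold, and 3, 2 and 0 of these had also passed by CPM in the same cluster. In 12W spleen these were *Trav14n-3* (12 UMIs in cluster 8), *Trav15-2-dv6-2* and *Trav15d-1-dv6d-1* (both in cluster 3). In 28W spleen they were *Trav15-2-dv6-2* in cluster 3 and *Trav7d-4* (23 UMIs in cluster 11, 8.85-fold by CPM, 5.52 to 13.5). By share alone, *Trav21-dv12* passed in 28W spleen cluster 8 on 13 UMIs and *Trav12-2* in cluster 10 on 16, and the 7 kidney segments passed in clusters 2 and 12 on 4 to 17 UMIs (*Trav5-1*, *Trav7-1*, *Trav7-3*, *Trav7-5*, *Trav13d-4*, *Trav14-1* and *Trav21-dv12*). In kidney the highest folds by CPM were those of *Trav6-4* in cluster 11, at 14.2 CPM against 3.68 (3.85-fold, 2.73 to 5.40), *Trav14-1* in cluster 3, at 29.3 against 7.90 CPM (3.71-fold, 2.91 to 4.70), and *Trav12-1* in cluster 11, at 44.0 against 13.1 CPM (3.36-fold, 2.79 to 4.04). Clonotypes were not used here.

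The Trav15 family moved with delta chain transcripts in the spleen before disease. In 12W spleen cluster 3, *Trav15-2-dv6-2* was at 85.2 CPM against 11.5 in the other clusters (7.38-fold, 6.17 to 8.81), and *Trav15d-1-dv6d-1* at 61.7 against 13.7 CPM (4.51-fold, 3.70 to 5.47). The family took 15.9% (14.3 to 17.5) of the Trav UMIs of this cluster, 6.32% in cluster 2, 4.53% in cluster 1 and 0.66% to 2.30% in the others. Cluster 3 also had the highest level of *Trdc*, the delta constant gene, at 126 CPM, of *Trdv2-2* at 131 CPM and of *Trdv5* at 81.7 CPM, with *Trac* at 227 CPM. The same cluster held erythroid genes at 37158 CPM, B cell markers at 349 and myeloid markers at 295 CPM, the highest of the library, and *Cd8a* at 301 CPM, under the 591 of the library. Cells of cluster 3 with alpha and with delta chains were not told apart, and the part of the erythroid, B cell and myeloid genes in these levels was not tested. Over the 10 clusters of 12W spleen the level of the Trav15 family and of *Trdc* had a Pearson correlation of 0.99 and a Spearman correlation of 0.96, as a description of clusters of 1 library. Clusters 1 and 2, in which no B cell, myeloid, tubule or erythroid list was raised, had *Trdc* at 38.3 and 45.2 CPM and the family at 58.5 and 58.8 CPM, above the other 7 clusters.

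**Figure D3:**
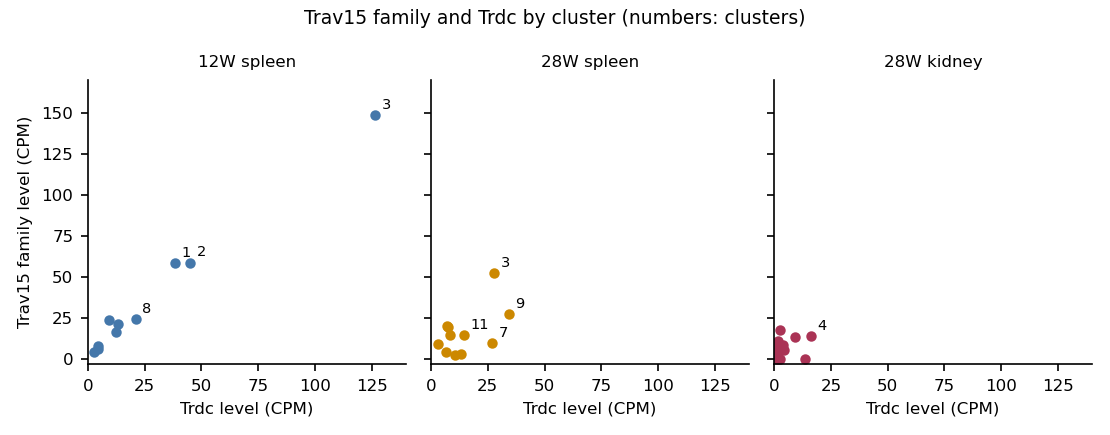
Level of the Trav15 family (y axis, CPM) against that of *Trdc*, the delta constant gene (x axis, CPM), with 1 point per cluster and 1 panel per library. In 12W spleen the family climbs with *Trdc* from 4.21 to 149 CPM, and in 28W kidney it stays at or under 18.0 CPM.

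In 28W spleen the relation was looser. *Trav15-2-dv6-2* was at 34.1 CPM in cluster 3 against 4.48 in the other clusters (7.60-fold, 5.98 to 9.69), and that cluster held 164 of its 286 UMIs. *Trdc* there was at 27.9 CPM, close to the 34.3 of cluster 9 and the 26.9 of cluster 7, where the family was at 27.5 and 9.57 CPM. Over the 11 clusters the correlation was 0.56 (Spearman 0.37), and over the 12 kidney clusters 0.15 (Spearman 0.20). 28W spleen cluster 3 had no raised list of these 4 cell types, and *Cd8a* was at 309 CPM there. Over whole libraries the family was at 34.0, 19.1 and 10.2 CPM, and *Trdc* at 24.6, 12.1 and 4.84 CPM, the same order. Leaving out the clusters marked by other cell types, the family was at 26.1, 19.7 and 10.8 CPM. Of the 9 genes of the gamma delta list, 0 were at least 2-fold higher and 2 lower in 28W than 12W spleen (*Trdv1* and *Trdv2-2*), and 1 was higher and 1 lower in kidney than 28W spleen (*Trdv4* and *Trdc*). Over all genes, 1.93% were higher and 0.981% lower by this rule with age, and 9.11% higher and 1.28% lower in kidney. *Trdv4* was at 0.92, 0.50 and 17.1 CPM, and 266 of its 512 kidney UMIs lay in cluster 4, at 77.0 CPM, where no B cell, myeloid or tubule list was raised. Its level was highest in cluster 12, at 98.2 CPM on 102 UMIs, the cluster with myeloid markers at 8518 CPM.

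All 10 listed segments with a delta name together took 13.2% (12.9 to 13.6), 12.3% (11.9 to 12.7) and 12.2% (11.8 to 12.6) of Trav UMIs. Within this group the orders ran both ways. *Trav15-2-dv6-2* and *Trav16d-dv11* were lowest in kidney, while *Trav6-7-dv9*, at 1.70%, 2.30% and 3.0%, *Trav14d-3-dv8*, at 1.91%, 2.12% and 2.85%, and *Trav4-4-dv10*, at 1.59%, 1.56% and 2.87%, were highest there.

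Of the segments of invariant receptors, *Trav11* was rare and *Trav1* was among the 3 segments past 2-fold in kidney. *Trav11* had 7, 7 and 26 UMIs, of which 19 of the 26 lay in kidney cluster 4 (0.60% of its Trav UMIs, 0.36 to 0.93). Without a pseudocount its CPM was 3.97-fold higher in kidney than in 28W spleen (log2 interval 0.75 to 3.44), and with the pseudocount the log2 ratio was 0.62. Its copy *Trav11d*, which differs by 1 base in the V exon, was not listed. *Slc4a10*, a marker of mucosal-associated invariant T cells, had 1, 2 and 1 UMIs, and *Zbtb16*, the transcription factor of innate-like T cells, was at 0.78, 0.22 and 1.04 CPM. The other genes of this list were *Klrb1c*, an NK cell receptor, at 4.32, 2.69 and 2.77 CPM, and *Il18r1*, the interleukin 18 receptor, at 16.5, 47.8 and 38.8 CPM, past 2-fold higher with age (log2 ratio 1.48). *Trav1* itself took 1.66%, 1.06% and 2.15% of Trav UMIs, while *Slc4a10* stood at 1 or 2 UMIs. Of the recombination genes, *Rag1* and *Rag2* had 0 UMIs in each library, where 3 counts would be 0.0864, 0.0937 and 0.100 CPM, and *Dntt* had 24, 12 and 1.

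Transcripts came from the length of the locus. The annotation places 128 Trav segments, 108 genes and 20 pseudogenes, at chr14:52427928-53977678 on the plus strand, ahead of *Trac* at chr14:54220521-54224206. Of these, 89 genes and 7 pseudogenes were listed. The 42 segments nearest *Trac* took 54.0% (53.4 to 54.5) of Trav UMIs at 12 weeks, 54.3% (53.7 to 54.9) in spleen at 28 weeks and 55.5% (54.9 to 56.1) in kidney. The middle 43 took 21.1%, 21.0% and 17.9% (17.5 to 18.4), and the 43 farthest segments 25.0%, 24.7% and 26.6%. The 14 unlisted V genes whose V exon is identical to another segment all lie in the farthest or the middle set. Examples are *Trav3d-3* in the farthest and *Trav3n-3* in the middle set. Reads that could not be assigned to such copies are missing from these sets, and their part in the shares was not tested. The intervals of the spleens overlap in the nearest set, and the kidney share of the middle 43 lies below both spleen shares. *Trav1*, the farthest segment, and *Trav2*, its neighbour, each took over 1% in all libraries.

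**Figure D4:**
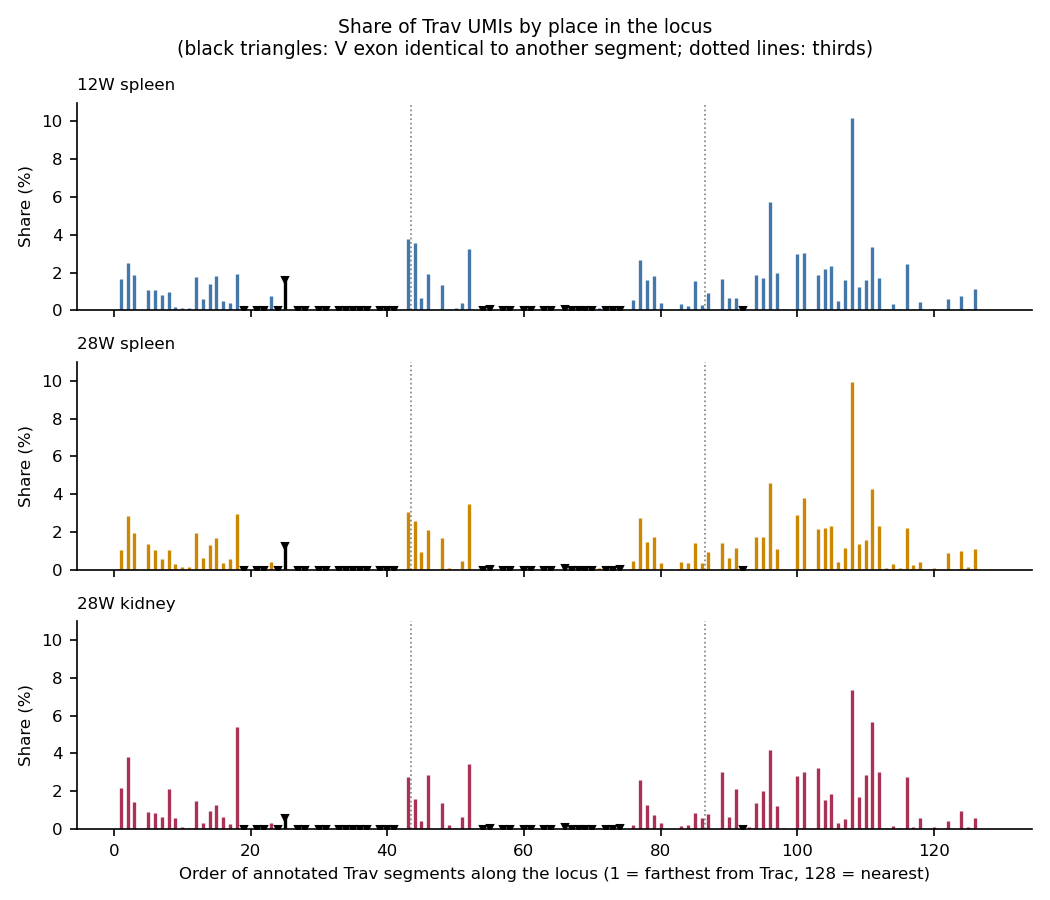
Share of Trav UMIs (y axis, percent) of each annotated segment in its order along the locus (x axis), 1 panel per library. Dotted lines part the 43 farthest, the middle 43 and the 42 nearest segments, black triangles mark segments whose V exon is identical to another, which are at or near 0 with 1 exception, and the tallest line is *Trav3-3*.

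Copies limited what could be read. In 34 V genes the V exon is identical to that of another segment, and these took 1.85%, 1.54% and 0.90% of Trav UMIs, with a median of 0, 1 and 0 UMIs, while 14 of the 19 V genes that were not listed are among them. The exception was *Trav15d-1-dv6d-1*, with 583, 311 and 154 UMIs, whose V exon equals that of *Trav15n-1* but whose annotated transcript is longer. The 31 V genes with 1 to 5 differences from another segment took 38.0%, 37.9% and 37.0%, and those with 6 to 20 differences 51.7%, 51.5% and 52.5%. *Trav10d*, *Trav10* and *Trav10n* belong to the first of these sets, and their sum is less open to exchange of reads between copies than each alone. Merging d and n copies by name gave an effective number of 32.6, 33.4 and 32.0. The merged sets were not limited to near-identical V exons, since *Trav13n-4* has 20 differences from its nearest segment, *Trav13d-1*.

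Trav level differed more between clusters than between libraries. In 12W spleen the lowest was cluster 7 (639 CPM) and the highest cluster 8 (2422, 2245 to 2610), where there were 9.20 Trav UMIs per *Trac* UMI against a median of 3.85 over clusters. In 28W spleen cluster 10 was lowest (142 CPM) and cluster 11 highest (1542), and the ratio to *Trac* was 3.63 and 3.95 in these. In kidney the lowest were cluster 12 (173 CPM), cluster 2 (269), cluster 8 (452), cluster 7 (521) and cluster 10 (544). Markers of B cells, myeloid cells or tubule were raised in 4 of these 5 and in 28W spleen cluster 10, and not in kidney cluster 10. In kidney clusters 2 and 10 the ratio of Trav to *Trac* was 1.05 and 1.21, against a median of 3.27, while *Trac* was at 255 and 448 CPM. Both had few Trav UMIs beside their *Trac* UMIs, at 1200 and 1822 UMIs per cell. Other clusters with few UMIs per cell had higher ratios. In 12W spleen cluster 8 the ratio was 9.20 at 928 UMIs per cell. In 28W spleen clusters 8 and 11 it was 3.39 and 3.95 at 1020 and 1288 UMIs per cell. A rearranged V segment and *Trac* lie on the same transcript, and the paper names a 5′ kit. The ratio therefore compares where UMIs were assigned and need not compare separate transcripts. The part of depth per cell in these ratios was not tested.

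**Figure D5:**
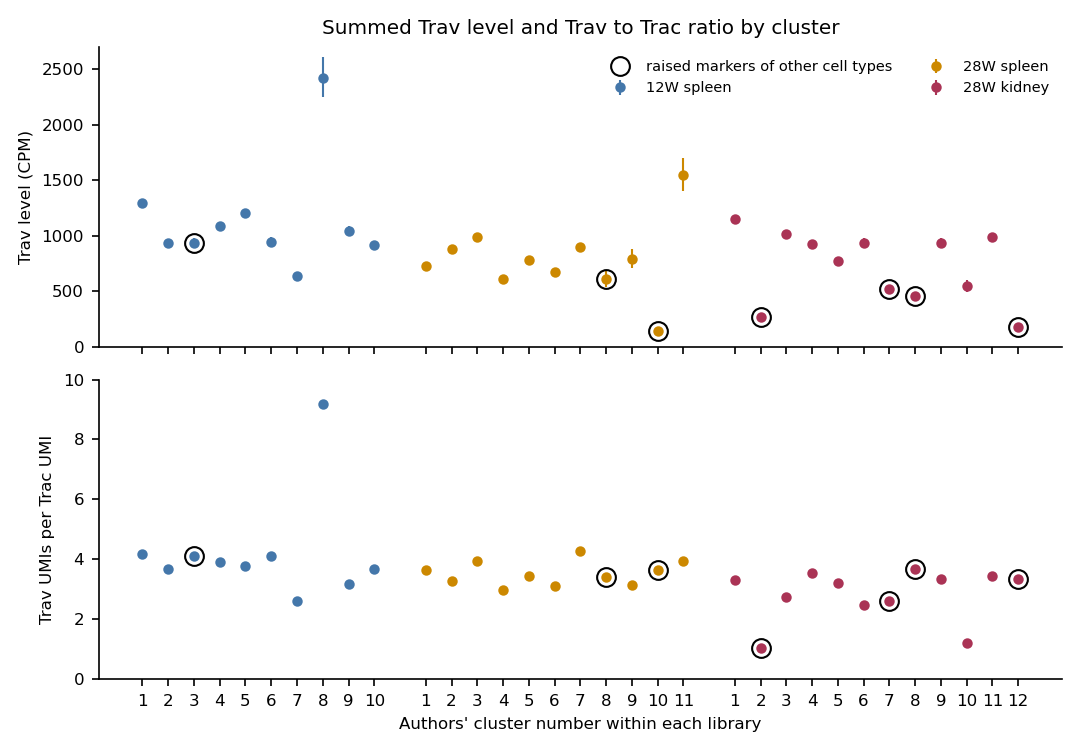
Summed Trav level (top, CPM, with 95% Poisson counting intervals) and Trav UMIs per *Trac* UMI (bottom) by the authors' cluster number within each library (x axis). Open circles are clusters where a B cell, myeloid or tubule list was raised, 12W spleen cluster 8 stands highest in both panels, and kidney clusters 2 and 10 are lowest in the ratio.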

How the data were processed

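Per library, the authors deposited a list of cell barcodes with cluster numbers and a table by gene and cluster with a mean count (a signal: UMIs divided by a size factor per cluster), a log2 fold change against the other cells and an adjusted p-value. No value given here rests on the deposited log2 fold changes or p-values. Labels name Cell Ranger 2.1.1, R 3.6.1 and GRCm38. The annotation release, cell filters and any removal of doublets are not given in the sources used here, and the tables by cluster allow no doublet caller, so doublets were not removed.

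Each column of mean counts held whole multiples of a single step, so division by that step gave whole UMIs. These were summed over clusters and scaled to 1000000 UMIs (CPM), since the authors normalized each table on its own. Log2 ratios used a pseudocount of 1 CPM over genes with at least 20 UMIs in either library. Counts of segments past 2-fold by share used a pseudocount of 0.05 percentage points. With 1 library per group no test was made. Shares have exact binomial (Clopper-Pearson) intervals, levels exact Poisson, ratios exact conditional and effective numbers delta-method intervals. Python 3.11.15, numpy 2.4.6, pandas 2.3.3 and scipy 1.17.1 were used, and the code was tested on simulated data.

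Named segments were those with at least 2.5% of Trav UMIs in a library, those leading a cluster, the 3 highest and 3 lowest ratios per comparison at 200 UMIs or more, the 3 highest cluster folds per library at 100 UMIs or more, and *Trav1*, *Trav11* and *Trav11d*. Segments named outside this rule were chosen after their values were seen. Members and gene lists were chosen with earlier results of these data known. Markers counted as raised where the B cell, myeloid or kidney tubule list reached 5 times the median cluster and 100 CPM. V exons came from GENCODE M21 transcripts (GRCm38). V exon differences are the fewest over annotated transcripts.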

Additional observations from a re-analysis of the deposited data

How the results depend on the processing

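Values rest on 1 library per group, so intervals cover counting error only. No paired analysis was possible because the deposited tables pool the 4 entries of each group, which may be sequencing lanes of 1 library, and for the same reason no replicate could be left out. Merging d and n copies by name, whether or not their V exons were close, moved the effective number of segments to 32.6, 33.4 and 32.0 (12W spleen, 28W spleen, kidney). Leaving out segments with a delta name moved it to 39.1, 39.8 and 38.4. It was 46.5 in 12W spleen with deposited means weighted by cells, 46.0 in 28W spleen and 43.4 in kidney with segments of at least 20 UMIs, and 43.7 in kidney without clusters that carry markers of other cell types. Without those clusters the Trav level was 795 CPM in 28W spleen and 973 in kidney (969 when clusters with raised erythroid genes were also left out, an alternative chosen after seeing the data), and weighted by cells it was 1107 in 12W spleen and 769 in kidney. In age, the count of segments at least 2-fold higher was 1 by share among Trav UMIs, and the count lower was 0 with a pseudocount of 5 CPM, 1 by share, 1 with copies merged and 1 with scaling by the median gene ratio. In organ, the count higher was 0 with a pseudocount of 5 CPM and 1 with scaling by the median gene ratio, and the count lower was 5 by share and 1 with that scaling. Concentrated segments numbered 1 in 12W spleen and 1 in 28W spleen at 8-fold, 3, 4 and 7 by share in 12W spleen, 28W spleen and kidney, and 1 in kidney with copies merged. An alternative chosen after seeing the data, at least 20 UMIs in the cluster, left 5 and 4 in the younger and older spleen and 0 in kidney. The 42 segments nearest *Trac* took 55.1% in 12W spleen without delta-named segments and 54.8% in kidney weighted by cells. Of 63 log2 ratios of named segments, 16 changed sign under at least 1 of their alternatives, and the largest of these was 0.364 in size. Of the 315 alternatives of these ratios, 91 lay outside the counting interval of the main ratio and 224 within it. The cause of these moves was not tested beyond the construction of each alternative.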
